A study of Penaeus vannamei with 11 samples.

Results

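Hemocytes of male Pacific white shrimp (Penaeus vannamei) stimulated with the bacterium Vibrio parahaemolyticus were compared with hemocytes of female shrimp given the same agent. The members are the 3 libraries labelled Vibrio and male and the 3 labelled Vibrio and female, 6 of the 11 libraries of the series. The comparison ran over all genes: of the 18803 genes in the deposited table, 14295 had enough counts to be tested. The series asks how sex relates to disease resistance in this farmed species.

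Hemocytes are the circulating cells of the hemolymph, drawn here by syringe into anticoagulant, spun down and lysed in Trizol. The other 5 libraries came from control males (2, numbered 2 and 3) and control females (3). All 11 libraries, controls included, carry the treatment label immune, which the labels do not explain, and the labels name no genotype, strain or age. The dose, the route and the time of the stimulation are missing from the sources used here, which also do not say whether a library stands for 1 animal or a pool. The p-values therefore measure only the spread between these samples, which may be technical.

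Shrimp have no antibodies, and their hemocytes carry much of the defence against bacteria. Hemocytes store and release antimicrobial peptides such as penaeidins, crustins and anti-lipopolysaccharide factors. They also make clotting transglutaminases, and they carry the prophenoloxidase system, in which a chain of serine proteases with CLIP domains switches on the enzyme that makes melanin.

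The Vibrio male libraries held 49451523, 51449309 and 50469139 counts, and the Vibrio female libraries 49660623, 50508693 and 53837438. Genes with a count numbered 13953, 14271 and 14192 in the male libraries and 15110, 13210 and 14670 in the female libraries, a difference that an exact two-sided permutation test did not separate (p = 0.8, where 3 against 3 cannot go below 0.1). Several hemocyte markers were abundant in all 6 libraries: penaeidin-3a-like, crustin-like protein, prophenoloxidase-1, integrin beta subunit and crustacean hematopoietic factor-like protein. So were the transglutaminases LOC113823934 and LOC113823945, but a putative hemocyte transglutaminase, LOC113826241, had only 23 to 1207 counts. Integrin alpha-PS3-like (LOC113827435) had only 27 to 172 counts. Not every member of these families is shown, nor is peroxinectin, which was also set as a hemocyte marker. The males were more alike than the females. Correlations of log2 CPM (counts scaled to a common library size) between libraries ran from 0.948 to 0.966 within males and from 0.880 to 0.912 within females, and the common biological coefficient of variation was 0.398 in males and 0.753 in females. Of the tested genes, 77.6% varied more among the female libraries.

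Markers of other tissues differed between libraries. Of the 137 hepatopancreas (digestive gland) markers by name, 70, 94 and 85 had counts in Vibrio males and 110, 61 and 97 in Vibrio females. Their summed share was 0.0520, 0.0931 and 0.0912% of the counts in Vibrio males and 0.305, 0.0557 and 0.220% in Vibrio females. Female libraries 1 and 3 thus held most, and female library 2 as little as the males. Of the 141 cuticle markers, 23, 21 and 32 had counts in Vibrio males and 78, 18 and 34 in Vibrio females, and the share in Vibrio female 1 was 0.0261%, against 0.00280 to 0.00687% in the other 5 Vibrio libraries. Whether these tissues' RNA plays a part in the results was not tested. The ranges of the summed shares overlapped between the sexes in the other marker lists, as they did for hepatopancreas and cuticle markers. Muscle markers took 0.362 to 0.445% in Vibrio males and 0.318 to 0.431% in Vibrio females. Of the 95 muscle markers, 50, 43 and 41 had counts in Vibrio males and 64, 40 and 50 in Vibrio females. Nervous system markers took 0.0860 to 0.104% in Vibrio males and 0.0802 to 0.0980% in Vibrio females. Gonad and germ cell markers took 0.0122 to 0.0137% in Vibrio males and 0.0104 to 0.0153% in Vibrio females, with 14 to 17 of 21 at 0 in the male libraries and 13 to 16 in the female libraries. In bulk RNA, fewer cells of a type and less RNA per cell cannot be told apart.

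No gene passed an adjusted p of 0.05 in the male to female contrast. The test was edgeR's quasi-likelihood test with Benjamini-Hochberg adjustment over 14295 genes, called 0% of them, and gave every gene an adjusted p of 1. At an unadjusted p under 0.05 it found 486 genes, 3.4% of those tested. DESeq2 called 17 genes, 0.123% of the 13794 to which it gave an adjusted p, 3 higher and 14 lower in males. Limma-voom called 0 genes and had 370 at an unadjusted p under 0.05. Without Vibrio female 1 or without Vibrio female 3, edgeR called 1 gene each. The first, LOC113808903, was at 0 in all 3 Vibrio males and had 0, 12 and 10.2 CPM in Vibrio females, while control males had 9.26 and 8.67 CPM and control females 0 in all 3. The other, LOC113823782, had 8.41, 4.97 and 9.62 CPM in Vibrio males and 0, 0 and 28.0 CPM in Vibrio females. Words such as higher and lower below therefore give measured values of genes that edgeR did not call.

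The spread of the libraries still left genes on which the sexes did not overlap. In 689 genes (4.82%) each of the 3 male libraries had a higher CPM than each of the 3 female libraries, and in 421 genes (2.95%) each was lower. Without Vibrio female 1 the counts were 1113 and 900, as 3 libraries against 2 part more easily. Full separation of 3 against 3 reaches only p = 0.1 in an exact two-sided permutation test. Genes can therefore part this way without a sex difference, and these shares alone do not show one. The fitted log2 fold change, male over female, was above 0 for 39.8% of genes and below 0 for 60.1%, with a median of -0.09. CPM here are TMM-scaled to a library of 1000000 counts, and values are given for libraries 1, 2 and 3 of each group in that order.

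Antimicrobial peptide genes had the highest median fold change, male over female, of the 28 gene lists described here. A putative antimicrobial peptide (LOC113801814, 1 of 2 genes with that name) had 9.26, 7.35 and 4.46 CPM in Vibrio males, against 2.04, 2.52 and 1.57 CPM in Vibrio females. Its log2 fold change was 1.78 with a standard error (SE) of 0.32, and it was 1 of the 3 genes that DESeq2 called higher (adjusted p = 0.000927). Every male library lay above every female library, and the same held in controls, where males had 5.30 and 5.09 CPM and females 3.93, 4.29 and 4.39 CPM.

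Penaeidin-3a-like (LOC113808997), a peptide stored in hemocyte granules, had 13796, 13434 and 9374 CPM in Vibrio males, against 5473, 7560 and 5666 CPM in Vibrio females. The log2 fold change was 0.97 with an SE of 0.31. In deposited FPKM, a level per gene length, the means were 16144 ± 3411 in males and 8177 ± 1169 in females (SD, n = 3 each). Crustin-like protein (LOC113816267), a cysteine-rich peptide, had 2762, 2715 and 2119 CPM in Vibrio males, against 1240, 1598 and 1390 CPM in Vibrio females, a log2 fold change of 0.85 with an SE of 0.26. Neither gene separated the sexes in controls, where both spanned overlapping ranges.

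Not every abundant peptide gene differed this way. Penaeidin-2b-like (LOC113808998) had 894, 1149 and 905 CPM in Vibrio males, against 329, 582 and 1008 CPM in Vibrio females, so the groups overlapped. The more abundant gene named putative antimicrobial peptide (LOC113801825) had 15532, 16316 and 10794 CPM in Vibrio males, against 7104, 9196 and 16579 CPM in Vibrio females. Female library 3 was the highest of all 6. An anti-lipopolysaccharide factor-like gene (LOC113800363, 1 of 8 of that name) had 7484, 12728 and 7978 CPM in Vibrio males, against 11921, 12414 and 7162 CPM in Vibrio females. Reads of same-named copies may be shared, so single members of such families are uncertain.

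Over the list of antimicrobial peptides, 18 of 21 members were tested. Of these, 13 were higher and 5 lower in males, 0 were called by edgeR, and the median log2 fold change was 0.38, beside -0.09 over all genes tested. The range of this median over the 6 fits that each left out 1 Vibrio library was 0.16 to 0.51. In controls the list's median was 0.48, beside -0.02 over all genes. Among the 5 lower members were auswaprin-a-like (LOC113800677), with 11.6, 9.07 and 20.1 CPM in Vibrio males and 34.3, 23.2 and 34.3 CPM in Vibrio females, and an anti-lipopolysaccharide factor-like copy (LOC113812204) with 0.435, 0.234 and 0.232 CPM in Vibrio males and 2.57, 1.29 and 0.510 CPM in Vibrio females. In summed counts, the list took 4.55, 4.92 and 3.40% of the male libraries and 2.89, 3.33 and 3.41% of the female libraries. The lowest male library lay just under the highest female library, so the summed share overlapped.

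**Figure D1:**
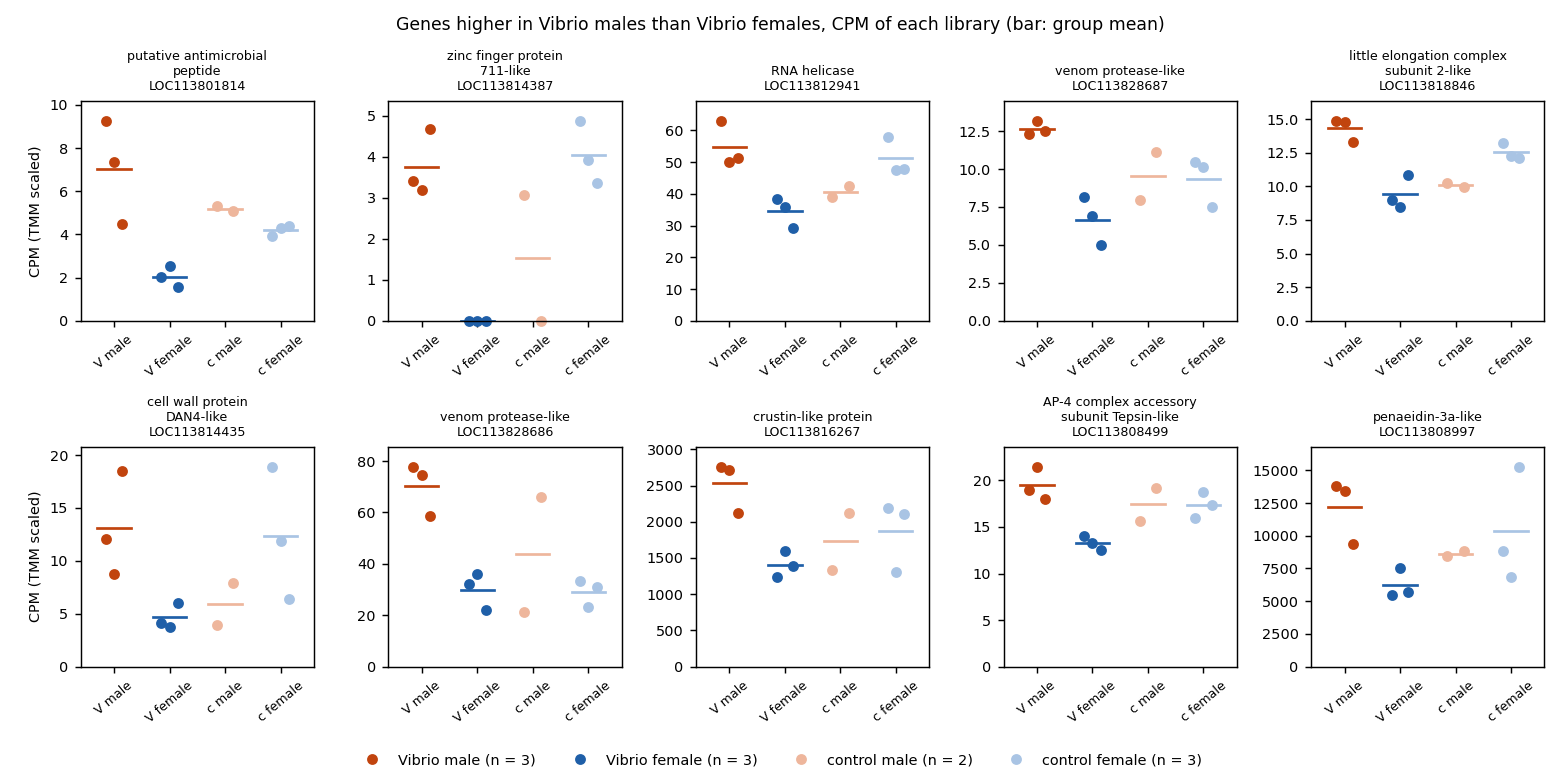
CPM of each library (points) and group means (bars) for the 10 genes with descriptive names, at least 5 FPKM in the higher sex and no overlap between Vibrio males and Vibrio females that had the smallest unadjusted edgeR p, higher in males. Vibrio males stand left of Vibrio females, followed by control males and control females; in RNA helicase, little elongation complex subunit 2-like and the zinc finger gene LOC113814387 the control sexes lie the other way round without overlap. By fold change, 4 of the 10 are higher and 6 lower in control males.

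Further genes with descriptive names were higher in Vibrio males without overlap. RNA helicase (LOC113812941) had 63.0, 50.1 and 51.2 CPM in Vibrio males, against 38.4, 35.8 and 29.4 CPM in Vibrio females, a log2 fold change of 0.67 with an SE of 0.17. Little elongation complex subunit 2-like (LOC113818846), named after a factor for small nuclear RNA transcription, had 14.9, 14.8 and 13.3 CPM in Vibrio males, against 8.99, 8.48 and 10.8 CPM in Vibrio females. In both genes the male values lay above the female ones with Vibrio and below them in controls. AP-4 complex accessory subunit Tepsin-like (LOC113808499), an adaptor of vesicle coats, had 19, 21.5 and 18.0 CPM in Vibrio males, against 14, 13.3 and 12.5 CPM in Vibrio females. A gene annotated as cell wall protein DAN4-like (LOC113814435, 1 of 14 of that name) had 12.1, 8.78 and 18.5 CPM in Vibrio males, against 4.15, 3.75 and 6.03 CPM in Vibrio females.

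A zinc finger gene (LOC113814387) was counted in Vibrio males alone among the 6 libraries. It had 3.40, 3.18 and 4.68 CPM in Vibrio males and no count in any of the 3 Vibrio female libraries. Set against a limit of 3 counts per female library, it was 64.0-fold higher in males, and DESeq2 called it (adjusted p = 1.32e-05). Absence was not a mark of females, since control females had 4.87, 3.92 and 3.35 CPM while the control males had 3.07 and 0 CPM. A count of 0 covers counting error only, and among counts of 1 to 20, from 61.3 to 68.2% in a library were even, so counts are not independent fragments. The limit of 3 counts takes them as independent, so the 64.0-fold is no lower bound.

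A run of 3 neighbouring uncharacterized genes was higher in males. LOC113811242 (named uncharacterized protein LOC113808014 in the table, 1 of 4 genes of that name) had 79.8, 122 and 114 CPM in Vibrio males, against 12, 28.5 and 10.3 CPM in Vibrio females. The means differed 6.24-fold, the log2 fold change was 2.64 with an SE of 0.44, and DESeq2 called the gene (adjusted p = 1.32e-05). The next tested gene, LOC113811243, starts 3067 bases on and had 98.6, 71.3 and 170 CPM in Vibrio males, against 11.1, 42.0 and 23.0 CPM in Vibrio females. Both genes overlapped between the sexes in controls, where LOC113811242 had 36.2 and 67.6 CPM in males and 57.4, 71.3 and 36.1 CPM in females. The last of the run, LOC113811219, had 0.397, 0.293 and 1.29 CPM in Vibrio males and 0 counts in all 3 Vibrio females. Set against the same limit of 3 counts it was 11.3-fold higher in males, which is no lower bound either. LOC113811219 carries the same name as LOC113811242, so reads may be shared between them.

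Serine proteases of 1 stretch of scaffold were higher in males side by side. Proteases of this kind, with trypsin-like or chymotrypsin-like domains, act in the cascades that lead to melanization and to Toll signalling in arthropods. Of 5 adjacent tested genes over 54718 bases, each was higher in every Vibrio male library than in any Vibrio female library. They were chymotrypsin-C-like (LOC113828682), 3 venom protease-like genes (LOC113828687, LOC113828683 and LOC113828686) and a CLIP domain-containing serine protease 2-like gene (LOC113828685).

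The most abundant of the 5 by CPM, LOC113828683, had 428, 488 and 443 CPM in Vibrio males, against 239, 306 and 326 CPM in Vibrio females. The largest fold change was that of LOC113828686, with 77.8, 74.6 and 58.6 CPM in Vibrio males, against 32.0, 36.0 and 21.9 CPM in Vibrio females, a log2 fold change of 1.23 with an SE of 0.37. LOC113828685 had 18.9, 18.8 and 16.9 CPM in Vibrio males, against 9.74, 13.2 and 6.78 CPM in Vibrio females. The 2 further proteases beside the run were also higher on average. LOC113828684, venom protease-like, had 154, 172 and 135 CPM in Vibrio males and 99.3, 143 and 86.0 CPM in Vibrio females, which overlap. LOC113828680, a second CLIP-domain gene, had 114, 149 and 104 CPM in Vibrio males and 89.3, 90.4 and 93.2 CPM in Vibrio females, which do not.

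In controls 1 of the 5, LOC113828685, had no overlap between the sexes, and there only by a margin lost in rounding, with 12.9 and 21.4 CPM in control males and 12.9, 11.2 and 8.74 CPM in control females. Of 11526 adjacent pairs of tested genes, 62 (0.538%) did not overlap in the same direction in both genes. Of these pairs, 46 were higher and 16 lower in males. There were 7 runs of 3 or more such neighbours, all 7 higher in males, and this run of 5 was the longest.

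**Figure D2:**
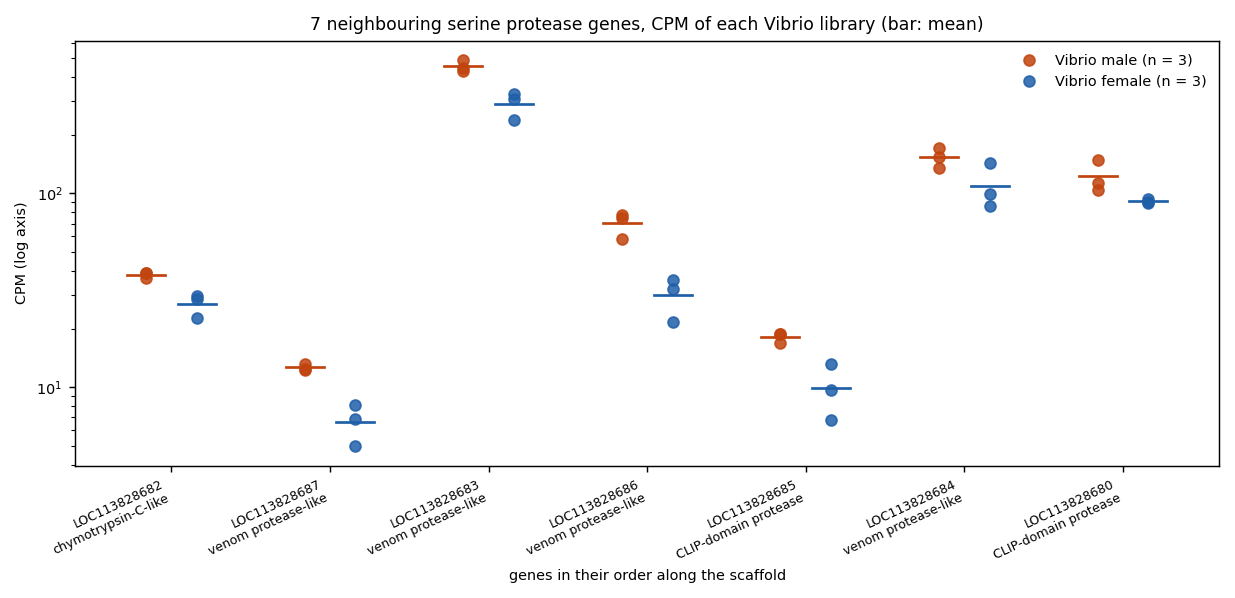
CPM of each Vibrio library (points, log axis) with group means (bars) for 7 neighbouring serine protease genes in their order on the scaffold. The male points lie above the female points in all genes except LOC113828684, where the ranges overlap.

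One gene of the same family went the other way. Venom protease-like LOC113821989 had 4.03, 5.09 and 7.27 CPM in Vibrio males, against 18.1, 16 and 20.4 CPM in Vibrio females, a log2 fold change of -1.73 with an SE of 0.35, and DESeq2 called it lower (adjusted p = 0.00282). Of the 12 venom protease-like genes, a family picked after its values were seen, 9 were tested: 8 were higher and 1 was lower in males. Over all tested genes 39.8% were higher. The 8 include LOC113828687, LOC113828683, LOC113828686 and LOC113828684 of the stretch above, so the tally partly repeats it. Without overlap, 3 were higher and 1 was lower.

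Among the named genes lower in males were a glycolytic enzyme and a subunit of a proton pump. Pyruvate kinase-like (LOC113828822), the last enzyme of glycolysis, had 341, 366 and 381 CPM in Vibrio males, against 580, 895 and 491 CPM in Vibrio females, a log2 fold change of -0.85 with an SE of 0.24. The B subunit of the V-type proton ATPase (LOC113821152), part of the pump that acidifies lysosomes and granules, had 61.8, 71.2 and 49.0 CPM in Vibrio males, against 78.8, 106 and 111 CPM in Vibrio females. Its near namesake LOC113822054 had 68.8, 79.2 and 51.9 CPM in Vibrio males, against 82.8, 114 and 97.1 CPM in Vibrio females. All 3 were ordered the other way in controls, where pyruvate kinase-like had 737 and 518 CPM in males and 271, 354 and 322 CPM in females.

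Zinc/cadmium resistance protein-like (LOC113807289) showed a small and even difference. It had 25.9, 27.8 and 28.0 CPM in Vibrio males, against 35.3, 39.6 and 40.1 CPM in Vibrio females, a log2 fold change of -0.49 with an SE of 0.14. DESeq2 called it (adjusted p = 0.00956), and control males (32.5 and 33.2 CPM) also lay below control females (38.6, 37.0 and 40.8 CPM). Tyrosine-protein kinase Src42A-like (LOC113806269), a kinase of adhesion signalling in flies, had 11.3, 8.82 and 13.1 CPM in Vibrio males, against 17.8, 15.7 and 30.2 CPM in Vibrio females.

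The other genes in this group included cytochrome b5-like genes, tubulin-folding cofactor B-like, alpha-mannosidase 2x-like and ER membrane protein complex subunit 7 homolog. Cytochrome b5-like LOC113803796 had 1.23, 2.94 and 1.78 CPM in Vibrio males, against 6.66, 3.40 and 4.94 CPM in Vibrio females. Tubulin-folding cofactor B-like (LOC113815788), which helps to assemble tubulin dimers, had 67.5, 77.4 and 85.1 CPM in Vibrio males, against 121, 150 and 86.7 CPM in Vibrio females. Alpha-mannosidase 2x-like (LOC113812487), a Golgi enzyme that trims sugars, had 20.3, 15.4 and 20.5 CPM in Vibrio males, against 36.2, 27.8 and 34.8 CPM in Vibrio females. Its control males, at 15.7 and 14.1 CPM, also lay below the control females, at 53.7, 24.4 and 36.8 CPM.

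**Figure D3:**
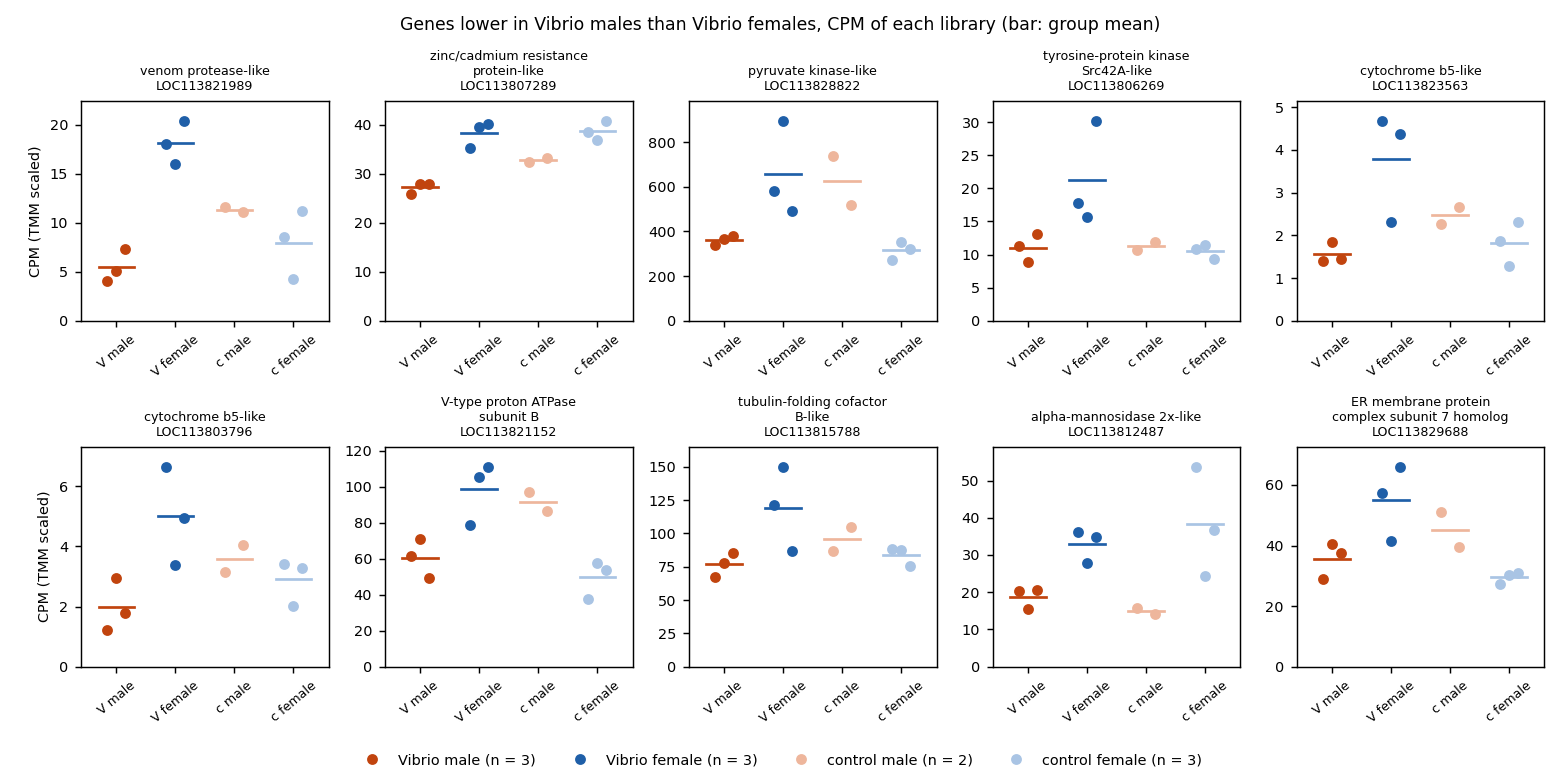
CPM of each library (points) and group means (bars) for the 10 genes chosen by the same rule that were lower in Vibrio males than in Vibrio females. In zinc/cadmium resistance protein-like and alpha-mannosidase 2x-like the control sexes are ordered as with Vibrio, and in pyruvate kinase-like, the proton ATPase subunit and ER membrane protein complex subunit 7 homolog they lie the other way round without overlap. By fold change, 8 of the 10 are higher and 2 lower in control males.

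The 14 genes that DESeq2 called lower were mostly low in counts. Of its 17 calls, 10 had no count in at least 2 of the 6 Vibrio libraries, and 8 had none in any male library. The nonzero female values of several rested on 1 library: LOC113806465 had 6.44 CPM in Vibrio female 1 and 0 in the other 5 Vibrio libraries, and LOC113808167 had 2.64 CPM in Vibrio female 1 and 0 in the other 5. Fibril-forming collagen alpha chain-like (LOC113807987), an extracellular matrix gene, was counted in all 6 libraries. It had 0.794, 0.371 and 0.502 CPM in Vibrio males, against 3.23, 1.9 and 2.28 CPM in Vibrio females, with a log2 fold change of -2.15, an SE of 0.46 and a DESeq2 adjusted p of 0.00712. Uncharacterized LOC113827072 had 0.227, 0.371 and 0.271 CPM in Vibrio males, against 1.74, 1.29 and 1.53 CPM in Vibrio females.

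Genes at 0 in all 3 Vibrio males numbered 271 among those tested, and genes at 0 in all 3 Vibrio females 72. Fewer of them were counted in every library of the other sex: 12 were at 0 in all 3 Vibrio females and counted in all 3 Vibrio males, and 20 were at 0 in all 3 Vibrio males and counted in all 3 Vibrio females. Of the 12, 12 had counts in control females, and of the 20, 16 had counts in control males. The median of the mean CPM was 0.170 in the 12 genes and 0.292 in the 20. The 271 include genes counted in only a single Vibrio female library, such as LOC113806465 in Vibrio female 1 and LOC113811675 in Vibrio female 2. Among the Vibrio libraries, Vibrio female 1 had the most genes with a count (15110) and Vibrio female 2 the fewest (13210). How many of the 271 rest on a single library was not tested, so the totals of 271 and 72 alone do not show a sex difference.

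The hepatopancreas list had 17 of 102 tested members higher and 85 lower in males, a median log2 fold change of -2.60. Without Vibrio female 1 its median was -0.85. Cuticle markers had a median of -2.92, which was 0.00 without Vibrio female 1. Single genes showed the same: peritrophin-44-like (LOC113807578) had 0.454, 4.29 and 1.31 CPM in Vibrio males, against 73.1, 0 and 3.50 CPM in Vibrio females. Hemocyanin-like (LOC113827912), the oxygen carrier made in the hepatopancreas, had 0.151, 0.156 and 0.135 CPM in Vibrio males, against 4.47, 0.167 and 1.37 CPM in Vibrio females. Neuroparsin-A-like (LOC113803948), a neurohormone, belongs to the nervous system list, whose median was -0.04. It had 1.93, 3.32 and 1.70 CPM in Vibrio males, against 71.8, 3.33 and 6.03 CPM in Vibrio females. The muscle list had 10 of 47 tested members higher and 37 lower in males (78.7%, beside 60.1% of all genes). Its median log2 fold change was -0.49, and ran from -0.68 to -0.25 with 1 Vibrio library left out at a time.

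**Figure D4:**
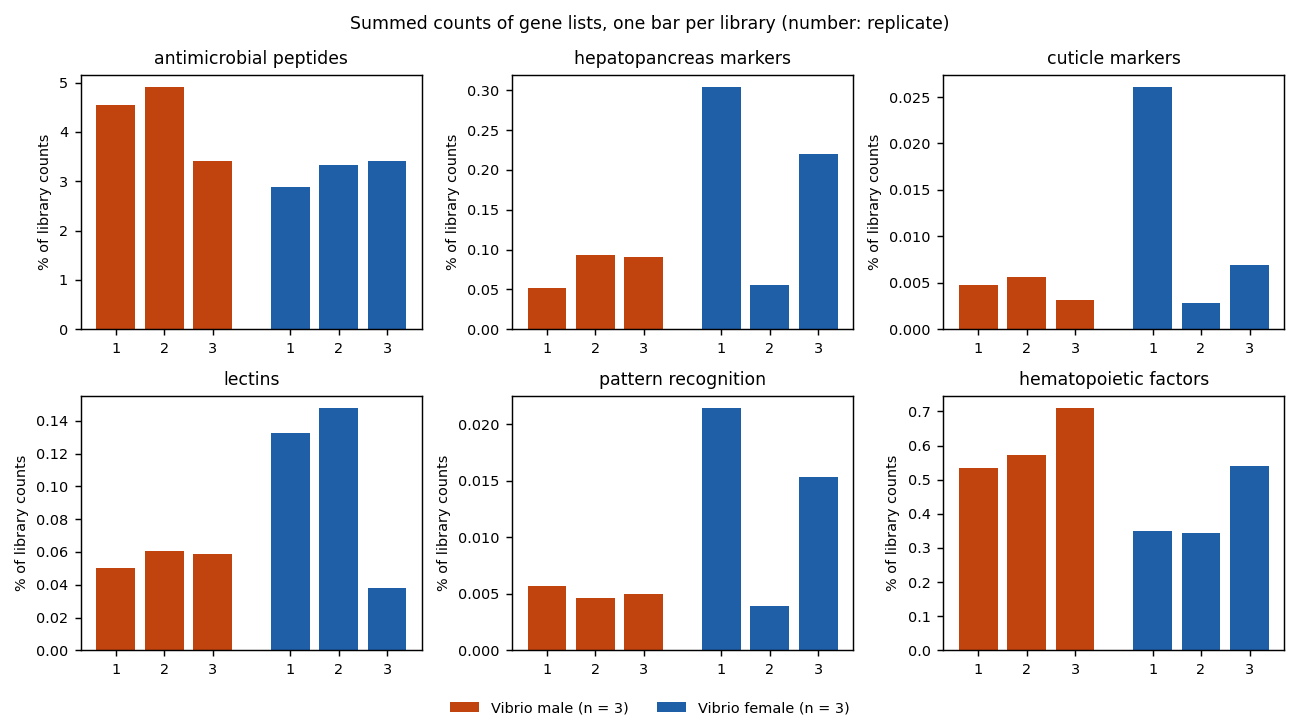
Share of each Vibrio library's counts (bars, in percent, numbered by replicate) taken by 6 gene lists. Hepatopancreas and pattern recognition shares are highest in female libraries 1 and 3, cuticle in female library 1, and lectins in female libraries 1 and 2.

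Recognition genes were lower in males by fold change, but only female libraries 1 and 3 stood out. In summed share, Vibrio female 2 (0.00397%) lay below every Vibrio male library (0.00461 to 0.00566%). Pattern recognition proteins bind bacterial or fungal surface sugars. Of 17 members, 9 were tested. All 9 were lower in males, with a median log2 fold change of -1.40, none called and none without overlap. That median ran from -1.97 to -0.91 with 1 Vibrio library left out at a time, and was -0.65 with no filter on low counts. In controls the list's median was 0.38, beside -0.02 over all genes. Beta-1,3-glucan-binding protein (LOC113807222), the most abundant of them, had 14.3, 6.14 and 15.1 CPM in Vibrio males, against 105, 3.56 and 64.1 CPM in Vibrio females, high in the same female libraries 1 and 3.

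Lectins, which bind sugars on cells and microbes, had 4 of 31 tested members higher and 27 lower, with a median log2 fold change of -0.97. Without Vibrio female 1 the median was -0.13. The most abundant, galactose-specific lectin nattectin-like (LOC113811918), had 336, 446 and 472 CPM in Vibrio males, against 845, 1383 and 229 CPM in Vibrio females. Female library 3 was the lowest of the 6, so the sexes overlapped. Collectin-12-like (LOC113830113) did not overlap, with 19.3, 11.9 and 21.1 CPM in Vibrio males and 25.5, 23.9 and 24.3 CPM in Vibrio females.

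Clotting and melanization genes gave no even difference. Of 15 tested coagulation genes and transglutaminases, 3 were higher and 12 lower in males, a median log2 fold change of -0.60, which was -0.07 without Vibrio female 3. The abundant transglutaminase LOC113823934 had 10554, 5148 and 10573 CPM in Vibrio males, against 7705, 9284 and 9138 CPM in Vibrio females. A rarer hemocyte transglutaminase-like gene (LOC113826241) had 0.832, 0.449 and 2.82 CPM in Vibrio males, against 19.1, 1.21 and 22.0 CPM in Vibrio females, again high in female libraries 1 and 3. Of 34 tested genes of the prophenoloxidase system, 15 were higher and 19 lower, with a median of -0.11, which was 0.16 without Vibrio female 1 and -0.36 without Vibrio male 1. Prophenoloxidase-1 (LOC113827090) had 2039, 1379 and 2646 CPM in Vibrio males, against 3758, 1956 and 2158 CPM in Vibrio females.

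Crustacean hematopoietic factor-like protein (LOC113802754) had 4790, 5565 and 6815 CPM in Vibrio males, against 3280, 3407 and 4962 CPM in Vibrio females. The lowest male library lay below the highest female library. Astakine (LOC113822052), the cytokine that drives hemocyte production, had 203, 159 and 94.6 CPM in Vibrio males, against 88.4, 181 and 320 CPM in Vibrio females.

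Ribosomal and respiratory chain lists leaned lower in males by small amounts, while the proteasome median lay near the -0.09 of all genes. Of 86 tested cytoplasmic ribosomal protein genes, 75 were lower and 11 higher, beside 60.1% of all tested genes lower, with a median of -0.22. The sexes did not overlap in 15, all lower, which is 17.4% of the list beside 2.95% of all genes. The most abundant by FPKM had the same order, 60S ribosomal protein L8-like (LOC113804304) with 2117, 2626 and 2362 CPM in Vibrio males and 2809, 3747 and 3224 CPM in Vibrio females. Of 63 respiratory chain genes, 55 were lower and 8 higher (median -0.22), and of 40 proteasome genes 32 were lower and 8 higher (median -0.12). Only 1 respiratory chain gene (1.59%) and 0 proteasome genes were lower without overlap. No gene of the 3 lists had an unadjusted edgeR p under 0.05. In controls the medians of these 3 lists ran the other way, at 0.60, 0.60 and 0.69, beside -0.02 over all genes. Without Vibrio female 2 the ribosomal median was -0.08, the respiratory chain median 0.03 and the proteasome median 0.11.

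Lysosome and antioxidant lists leaned the same way. Of 49 lysosomal and cathepsin genes, 44 were lower and 5 higher, with a median of -0.30. NPC intracellular cholesterol transporter 2 homolog (LOC113806913), a lysosomal lipid carrier, had 63.8, 52.0 and 41.2 CPM in Vibrio males, against 66.2, 86.9 and 108 CPM in Vibrio females. Of 55 antioxidant genes, 42 were lower and 13 higher, with a median of -0.19. Superoxide dismutase [Cu-Zn]-like (LOC113809633), which removes superoxide, had 84.8, 104 and 126 CPM in Vibrio males, against 208, 136 and 137 CPM in Vibrio females. Cytoskeleton genes had a median of -0.35, with 41 of 48 lower; actin-related protein 2/3 complex subunit 5-C-like (LOC113826245), part of the complex that branches actin, had 137, 142 and 149 CPM in Vibrio males, against 192, 226 and 183 CPM in Vibrio females. With 1 Vibrio library left out at a time, the medians ran from -0.51 to -0.17 for lysosomal genes, from -0.28 to -0.09 for antioxidant genes and from -0.40 to -0.20 for cytoskeleton genes. In controls they were 0.31, 0.54 and 0.29 in that order.

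Signalling and stress lists lay near the median of all genes. Toll and IMD pathway genes, which carry the response to bacteria in arthropods, had 7 of 13 higher and 6 lower, with a median of 0.01. JAK-STAT and antiviral genes had 9 higher and 9 lower of 18, with a median of -0.01, which was 0.40 without Vibrio female 3. Heat shock and chaperone genes had 24 higher and 43 lower of 67, with a median of -0.09. Apoptosis genes had 12 higher and 16 lower of 28, with a median of -0.10. Adhesion and phagocytosis genes had 12 higher and 31 lower of 43, with a median of -0.12, and glycolysis genes 6 higher and 17 lower of 23, with a median of -0.16. With 1 Vibrio library left out at a time, the medians changed sign for Toll and IMD genes (-0.14 to 0.07), heat shock genes (-0.19 to 0.05) and apoptosis genes (-0.12 to 0.03).

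A chaperone and a replication gene were higher in males. Endoplasmin-like (LOC113823664), a chaperone of the endoplasmic reticulum, had 225, 338 and 223 CPM in Vibrio males, against 220, 179 and 125 CPM in Vibrio females. Proliferating cell nuclear antigen-like (LOC113801970), the DNA replication clamp, had 0.870, 1.83 and 0.618 CPM in Vibrio males, against 0.333, 0.313 and 0.328 CPM in Vibrio females, and it did not overlap in controls either. Replication and cell cycle genes as a list had 36 higher and 41 lower of 77, with a median of -0.03 and a range of -0.11 to 0.11 with 1 Vibrio library left out at a time. Of the 28 most abundant members, 1 per list, 1 was higher and 1 lower without overlap, beside 4.82% and 2.95% of all genes. With 28 genes these counts cannot be told from those shares. None of the 28 had an unadjusted edgeR p under 0.05.

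**Figure D5:**
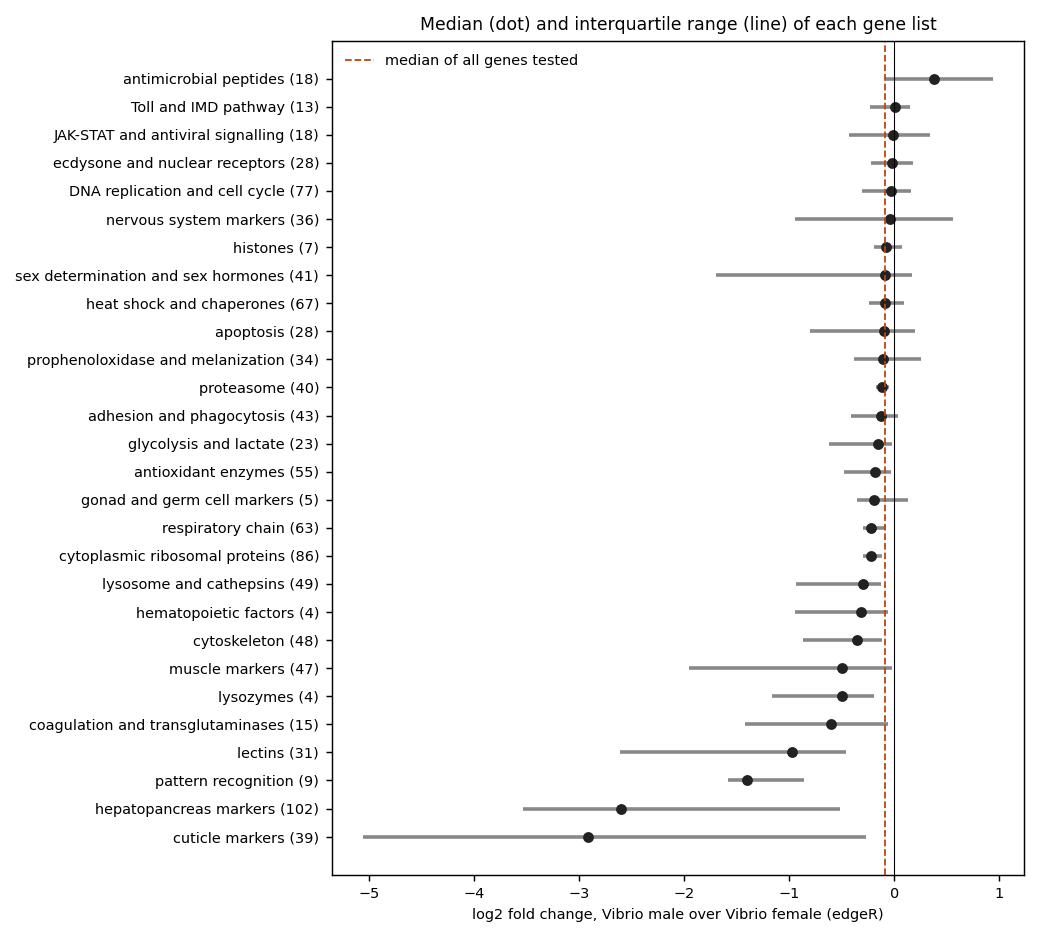
Median (dot) and interquartile range (line) of the log2 fold change, Vibrio male over Vibrio female, in each of 28 gene lists (number tested in brackets), with the median over all genes tested as a dashed line. Antimicrobial peptides have the highest median, and cuticle and hepatopancreas markers the lowest.

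Sex-determination genes gave no difference that passed the test. Of 41 tested genes for sex determination and sex hormones, 19 were higher and 22 lower in males, none had an unadjusted p under 0.05, and the median log2 fold change was -0.09, which was 0.08 without Vibrio female 3. Without overlap, 2 were higher (4.88%, beside 4.82% of all genes) and 1 was lower (2.44%, beside 2.95%). Sex-lethal (LOC113820661), a splicing regulator that sets sex in flies, had 187, 223 and 258 CPM in Vibrio males, against 239, 226 and 244 CPM in Vibrio females. Its namesake LOC113803286 had 329, 367 and 446 CPM in Vibrio males, against 427, 403 and 238 CPM in Vibrio females. The ranges overlapped in both.

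Transformer-2 protein homolog alpha-like (LOC113822175), which controls sex-specific splicing in flies, had 125, 128 and 148 CPM in Vibrio males, against 121, 124 and 114 CPM in Vibrio females. Sex determination protein fruitless-like (LOC113803434), a transcription factor of male behaviour in flies, had 14.4, 13.2 and 14.2 CPM in Vibrio males, against 10.7, 13 and 10.4 CPM in Vibrio females. Both were the other way round in controls. Protein doublesex-like (LOC113800244), the switch factor of insect sexual differentiation, had 0 counts in all 3 Vibrio males and 0.215, 0.0833 and 0 CPM in Vibrio females. At this depth no difference was detectable for doublesex-like.

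The nuclear receptor HR38 (LOC113821695), a hormone-linked transcription factor, had 3.35, 0.995 and 3.03 CPM in Vibrio males, against 10.2, 5.27 and 7.40 CPM in Vibrio females, without overlap. Over the 28 tested genes of ecdysone signalling and nuclear receptors, 12 were higher and 16 lower, with a median of -0.02, which was 0.30 without Vibrio female 3.

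The control libraries share no sample with the Vibrio contrast, and few of the non-overlapping genes also parted there in the same direction. This asks for full separation, which most genes do not reach in controls, so it does not show that order was lost. In controls, males and females did not overlap in 9.54% of genes with males higher and in 11.8% with males lower, where 2 against 3 libraries part more easily than 3 against 3. EdgeR called 0% of genes there and 4.88% had an unadjusted p under 0.05. Of the 689 genes higher in Vibrio males, 36 (5.22%) were also higher without overlap in control males and 130 (18.9%) were lower. Of the 421 genes lower in Vibrio males, 35 (8.31%) were also lower and 44 (10.5%) were higher. Fold changes of the 2 contrasts, taken over the 8182 genes at 5 CPM or more, had a Pearson r of -0.08 and a Spearman rho of -0.16, given as a description since genes are not independent replicates.

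Genes with the same order without overlap in both treatments, at least 5 FPKM and a descriptive name numbered 11 with males higher and 5 with males lower. Before the limits on level and name, 5.22% of genes higher in Vibrio males were also higher in control males, beside 9.54% of all genes. With males lower it was 8.31%, beside 11.8% of all genes. These numbers alone therefore do not show a sex difference kept in both treatments. Besides the antimicrobial peptide LOC113801814 and the protease LOC113828685, the 11 genes included microspherule protein 1-like (LOC113825404). It had 15.8, 20.9 and 19.6 CPM in Vibrio males and 12.8, 10.5 and 13.8 CPM in Vibrio females. Ketohexokinase-like (LOC113811632), which phosphorylates fructose, had 39.2, 34.2 and 28.7 CPM in Vibrio males, against 23.7, 24.5 and 25.2 CPM in Vibrio females. Innexin inx2-like (LOC113822048), a gap junction protein and 1 of 15 of that name, had 30.3, 13.2 and 28.1 CPM in Vibrio males, against 42.8, 32.9 and 47.7 CPM in Vibrio females. Its control males had 35.8 and 24.7 CPM and its control females 60.7, 38.1 and 84.2 CPM.

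The difference between the sex differences, with Vibrio minus in controls, was tested in the same edgeR fit. It called 0% of genes and 5.6% had an unadjusted p under 0.05; the smallest adjusted p was 0.74. Pyruvate kinase-like (LOC113828822) had a difference of -1.84 on the log2 scale with an SE of 0.36, and an edgeR adjusted p of 0.74.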

How the data were processed

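RNA-seq of hemocytes was analysed from 1 deposited table, which holds whole-number counts and FPKM of 18803 genes in 11 libraries. The authors' deposited counts were taken as raw, since library totals differ. FPKM values were deposited by the authors beside the counts. Cutadapt 1.9 and FastQC are named, with no role, per the submitters' processing notes. Which aligner, counter, build and strand mode were used is not given in the sources used here.

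Genes were filtered with filterByExpr (14295 of 18803 kept), scaled by TMM and tested with edgeR 4.0.16 in R 4.3.3, in 1 quasi-likelihood fit over all 11 libraries with 4 group means. The 3 contrasts (males against females with Vibrio, in controls, and the difference) were tested, two-sided, each adjusted by Benjamini-Hochberg. DESeq2 1.42.0, limma 3.58.1 (voom), RLE size factors, no filter, the 6 Vibrio libraries alone, a replicate block and leaving out each Vibrio library were alternatives. Standard errors were derived from the fold change and its F statistic.

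The 28 lists were made by gene name, with 562 names removed and 5 added by name. The members, lists and named genes were chosen with earlier results of these data known. Named genes were, in each direction, the 10 with the smallest p among descriptively named, non-overlapping genes of at least 5 FPKM in the higher sex, the most abundant and the lowest-p non-overlapping member of each list, sex-determination genes, genes called by an alternative, and up to 5 per direction with no overlap in both treatments. Not all of these are printed, and LOC113811243, LOC113811219, LOC113828680, LOC113828683, LOC113828684, LOC113822054, LOC113808998, LOC113800363, LOC113800677, LOC113812204, LOC113826241, LOC113823934, LOC113806913, LOC113822052 and LOC113827912 were chosen after their values were seen. CPM are counts per library of 1000000 after TMM scaling. A count of 0 allows up to 3 counts in a library. Intervals and limits cover counting error only.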

Additional observations from a re-analysis of the deposited data

Results flagged for a closer look

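The 11 genes given here lay without overlap in opposite directions in the 2 treatments, every Vibrio male library to one side of every Vibrio female library and every control male library to the other side of every control female library. They were picked for this pattern from 66 named genes, so the pattern itself is no result. Over all tested genes, 130 of the 689 genes higher in Vibrio males were lower without overlap in control males. Of the 421 lower in Vibrio males, 44 were higher there. In controls 9.54% of all genes parted with males higher and 11.8% with males lower. The values are the sex difference with Vibrio minus that in controls, in log2. They were 0.99 for RNA helicase (LOC113812941), 11.94 for a zinc finger gene (LOC113814387), 0.91 for little elongation complex subunit 2-like (LOC113818846), -1.84 for pyruvate kinase-like (LOC113828822) and -1.59 for V-type proton ATPase subunit B (LOC113821152). They were -1.39 for its namesake LOC113822054, -1.24 for ER membrane protein complex subunit 7 homolog (LOC113829688), -1.07 for actin-related protein 2/3 complex subunit 5-C-like (LOC113826245), 0.43 for transformer-2 alpha-like (LOC113822175), 0.68 for fruitless-like (LOC113803434) and -13.87 for LOC113825608. The fitted values of LOC113814387 and LOC113825608 rest on libraries at 0 and are no bounds. The edgeR test of the difference gave each an adjusted p of 0.74, so none passed.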

How the results depend on the processing

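EdgeR called 0 genes, and under the alternatives DESeq2 called 17; leaving out 1 Vibrio library at a time gave 0 to 1, the calls being LOC113808903 without Vibrio female 1 and LOC113823782 without Vibrio female 3. RLE size factors, limma-voom, no filter and the 6 Vibrio libraries alone gave 0. With the replicate block it was 0, with 231 genes at an unadjusted p under 0.05. Residuals of same-numbered libraries correlated at -0.43, -0.33 and 0.02, and not every library correlated best with its own number, so the numbers were not used as pairs. Non-overlapping genes numbered 1110, 1121 from FPKM, and 2013 without Vibrio female 1 (chosen after seeing the data), where fewer libraries part more easily. Reversed directions were near 0 or rest on 1 library, and the cause was not tested: LOC113823934 at -0.031 (replicate block), -0.021 (RLE size factors and DESeq2) and -0.15 to 0.28 (libraries left out), and with libraries left out LOC113803286 at -0.13 to 0.25, LOC113820661 at -0.20 to 0.024, LOC113822052 at -0.72 to 0.17, LOC113807578 at -4.85 to 0.20 and LOC113823782 at -0.87 to 11.55, the last also at 5.68 with the replicate block. The number of genes at an unadjusted p under 0.05, 486 as reported, was 789 with DESeq2 and ran from 232 (without Vibrio male 1) to 1130 (without Vibrio female 3) with libraries left out.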

Other observations

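Besides the proteases and the uncharacterized genes, 5 more runs of at least 3 neighbouring tested genes were higher in every Vibrio male library than in any Vibrio female library, picked after their values were seen. One spans 3411 bases with zinc finger protein genes (LOC113804762 and LOC113804763) on either side of a broad-complex core protein-like gene (LOC113804744). Another, over 34700 bases, holds a nuclear receptor-binding protein-like gene (LOC113808700), a putative Mediator subunit gene (LOC113808701) and an uncharacterized gene. A run of 4 over 90947 bases holds a pair of genes annotated as ANTAGONIST OF LIKE HETEROCHROMATIN PROTEIN 1-like (LOC113802147 and LOC113802150). No gene in these runs passed an edgeR adjusted p of 0.05.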
